A study of Mus musculus with 2 samples.

Results

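Smooth muscle cells and the pericytes that wrap small vessels share a contractile gene programme, and 10 of its genes were followed here in bone marrow mesenchymal stem/progenitor cells (MSPC). The genes were taken by symbol from a table of 35275 Ensembl identifiers, and all 10 were found. They encode the thin filament (Acta2, Actg2, Tpm1 and Tpm2), proteins that bind or build it (Cnn1, Tagln and Lmod1), smooth muscle myosin (Myh11 and Myl9), and Rgs5, a G protein regulator used as a pericyte marker. The cells came from C57BL/6 mice that all carried Nestin-Cre, a recombinase driven by the nestin gene's control region. The control mice were Ptpn11+/+ and the mutant mice Ptpn11E76K/+, which have an activating change in the phosphatase SHP2 on one allele. Ages were not given in the sources used here. CD45, Ter-119 and CD31 were absent and CD140 and Sca-1 present on the sorted cells, per the labels' protocols. The labels list 1 library per genotype although the design text mentions 2 replicates, so the comparison is between 2 libraries, with no replicate check and no test.

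In a contractile cell, actin filaments slide along myosin filaments. Smooth muscle isoforms of actin, tropomyosin and myosin replace or join the isoforms that every cell uses for its cytoskeleton. Many of these genes are switched on by serum response factor (SRF), which binds a promoter sequence called the CArG box, together with cofactors of the myocardin family. Stromal cells and myofibroblasts can express Acta2, Tagln and Cnn1 without being smooth muscle, while Myh11 and the cofactor gene Myocd are more restricted to that lineage. In the marrow, pericytes and other cells on vessels are counted among the stromal cells that keep blood stem cells.

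RefSeq promoter windows on GRCm38.p6, from 250 bases before to 50 after the annotated start, were at hand for 7 of the 10 genes (Acta2, Tpm1, Tpm2, Cnn1, Lmod1, Myl9 and Rgs5). The strict CArG box, which reads the same on both strands, was found in the Myl9 window and in 1.63% of all 32851 windows. A looser form with at most 1 G or C among its central letters occurred in 9.98% of windows, and among the 7 genes in those of Acta2 and Myl9. The Acta2 window lies at chr19:34255324-34255623 on the minus strand and the Myl9 window at chr2:156775214-156775513 on the plus strand. Both are printed because they hold these matches, which are in capitals, and Acta2 was added after its letters were read.
Acta2: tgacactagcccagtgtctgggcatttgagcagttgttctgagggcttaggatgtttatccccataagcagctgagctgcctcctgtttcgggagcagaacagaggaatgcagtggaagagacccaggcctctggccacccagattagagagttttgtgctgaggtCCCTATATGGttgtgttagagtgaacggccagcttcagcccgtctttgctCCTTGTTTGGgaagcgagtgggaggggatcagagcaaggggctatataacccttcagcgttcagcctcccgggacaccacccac
Myl9: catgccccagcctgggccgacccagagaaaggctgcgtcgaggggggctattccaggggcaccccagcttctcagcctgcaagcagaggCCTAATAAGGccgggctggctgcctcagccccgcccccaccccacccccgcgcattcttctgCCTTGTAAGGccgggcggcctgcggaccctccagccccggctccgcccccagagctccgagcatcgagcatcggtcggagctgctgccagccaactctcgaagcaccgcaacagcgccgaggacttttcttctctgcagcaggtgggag
In Acta2 the matches begin 84 and 34 bases before the start, and in Myl9 161 and 99 bases before it. The one at 161 in Myl9 is the strict match. The letters CATTCC, the core bound by TEAD factors, were found on either strand in the windows of Acta2, Tpm1 and Lmod1 and in 14.7% of all windows. These matches describe the windows and are not evidence of binding.

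Actin genes code for almost the same protein, so it matters whether their reads can be told apart. The last 60 coding bases before the stop codon are shown for the 4 actin genes that the results turn on, from GENCODE M21 transcripts, with bases that differ from Acta2 in capitals.
Acta2: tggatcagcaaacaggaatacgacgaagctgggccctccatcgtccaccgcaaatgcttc
Actg2: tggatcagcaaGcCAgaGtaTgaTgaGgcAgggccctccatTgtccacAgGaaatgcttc
Actb: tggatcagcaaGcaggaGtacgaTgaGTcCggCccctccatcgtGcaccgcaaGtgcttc
Actg1: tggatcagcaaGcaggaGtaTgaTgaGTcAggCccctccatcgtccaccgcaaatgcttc
Actg2 differed from Acta2 at 11 of these bases, Actb at 9 and Actg1 at 8. Over the coding sequence, Acta2 was 83.8% identical to Actg2, 83% to Actb and 81.7% to Actg1. Of 50-base windows along the transcript, 0.352% of those of Acta2 and 0 of those of Actg2, Tpm1, Tpm2, Cnn1, Lmod1, Myl9 and Rgs5 occurred in a transcript of another gene. Of Myh11, 26 windows (0.4%) were shared, all of them also in the far more abundant Myh9. Tagln shared most, with 48.3% of its windows (747) found in other genes, 688 of them in Gm48529, an antisense gene that is not in the table. Pcsk7 is also annotated as overlapping Tagln on the opposite strand. No source used here gives the strand setting of the counting. Pcsk7, which encodes a proprotein convertase, had 1015 control and 858 mutant counts, far fewer than Tagln, and a fold of 1.12. How reads were shared between these genes was not tested.

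Total counts were 22328659 for the control and 18010963 for the mutant library. Levels are in CPM, the counts of a gene relative to the library total after TMM scaling, and folds are mutant over control with a 95% exact interval from the split of the counts, which covers counting error only. A gene with at least 20 counts over both libraries was called measured. A call, higher or lower, required the entire interval to be past 2-fold. Of the 10 genes, 9 were measured, Tagln and Cnn1 were called higher in the mutant library, and Rgs5 was called lower. Over the whole table, 6.98% of the 13142 measured genes were called higher and 8.29% lower, by the same rule. These were 917 genes higher and 1090 lower, a split that became 723 and 1315 when library totals left out the 100 most abundant genes. The median log2 ratio was 0.70 over all 10 genes and 0.01 over all measured genes. With TMM scaling, 50.1% of all measured genes had a higher level in the mutant, and of the 9 measured genes followed here all but Rgs5 did. Scaled to Actb and Actg1, as described below, that held for Actg2, Cnn1, Tagln and Lmod1 only.

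**Figure D1:**
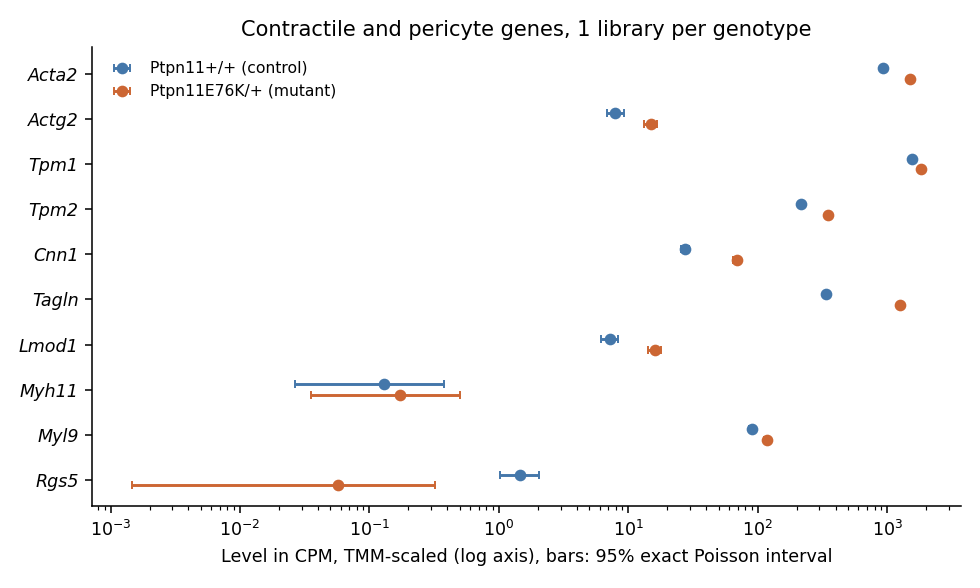
Level of each of the 10 genes in CPM on a log axis, in the control library (blue) and the mutant library (orange), with 95% exact Poisson intervals that cover counting error only. Tagln went from 337 to 1258 CPM, Rgs5 from 1.47 to 0.0575 CPM, and the intervals of Myh11 overlap.

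Acta2, which encodes smooth muscle alpha-actin, was abundant in both libraries, with 21444 control and 26086 mutant counts, or 927 and 1500 CPM. Its level was 1.62-fold higher in the mutant (1.59 to 1.65) and was not called. Actg2, which encodes the gamma-actin of gut and other visceral smooth muscle, had 184 and 259 counts, or 7.96 and 14.9 CPM. Its fold was 1.87 (1.54 to 2.27). Smooth muscle alpha-actin RNA was thus common in these cells in both genotypes, and the visceral isoform was present at a small fraction of that level.

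Tpm1 encodes a tropomyosin made in muscle and non-muscle forms, which a gene-level count does not separate. Control and mutant counts were 36198 and 31770, or 1565 and 1827 CPM, a 1.17-fold higher level in the mutant (1.15 to 1.19). Tpm2, which encodes the beta-tropomyosin of muscle and fibroblasts, had 4962 and 6058 counts, or 214.5 and 348 CPM, and was 1.62-fold higher (1.56 to 1.69). Neither tropomyosin was called. Of the 4 thin filament genes, Tpm1 had the smallest fold and Actg2 the largest.

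Tagln, which encodes transgelin (SM22), an actin-bundling protein of smooth muscle and activated fibroblasts, showed the largest increase of the 10 genes. Its counts were 7802 (control) and 21867 (mutant), or 337 and 1258 CPM. The mutant level was 3.73-fold higher (3.63 to 3.83), and 96.8% of measured genes had a ratio at or below it. Per kilobase of transcript, Tagln went from 211.5 to 788.5 CPM per kilobase and from rank 240 to rank 69 among the measured genes.

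Cnn1, which encodes calponin 1, an actin-binding inhibitor of the myosin ATPase, had 636 and 1196 counts in control and mutant, or 27.5 and 68.8 CPM. It was 2.50-fold higher in the mutant (2.27 to 2.76). Lmod1, which encodes leiomodin 1, a nucleator of actin filaments in smooth muscle, had 166 and 278 counts, or 7.18 and 16 CPM. Its fold of 2.23 was close to that of Cnn1, but its interval (1.83 to 2.72) reached below 2-fold, so it was not called. All 3 genes for filament-binding proteins thus had point estimates above 2-fold, at levels that span a wide range.

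Myh11 encodes the heavy chain of smooth muscle myosin and is the most lineage-restricted gene of the set. It had 3 counts in each library, or 0.130 and 0.173 CPM, was not measured by the rule and is given no fold. Myl9, which encodes a regulatory light chain shared by smooth muscle and non-muscle myosin, had 2080 and 2040 counts, or 89.9 and 117 CPM. It was 1.305-fold higher in the mutant (1.23 to 1.39) and was not called. Myocd, the cofactor gene of the smooth muscle lineage, had 4 and 7 counts, and Des, which encodes the muscle intermediate filament desmin, had 0 and 6. Myh11, Myocd and Des were therefore at or near 0 in both libraries, beside abundant Acta2 and Tagln.

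Rgs5 encodes a protein that shortens signals from G protein-coupled receptors and is widely used to mark pericytes. Its counts were 34 (control) and 1 (mutant), or 1.47 and 0.0575 CPM. The mutant level was 25.6-fold lower, with an interval from 4.29 to 1039 that reflects the single count. Rgs5 was low even in the control, at rank 12226 of the measured genes per kilobase of transcript, and it was the only one of the 10 genes with a lower level in the mutant library. In these bulk libraries, fewer cells of a type and less RNA per cell cannot be told apart.

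Per kilobase of the longest GENCODE M21 transcript, the control order was Tpm1 (541.5 CPM per kilobase), Acta2 (456), Tagln (211.5), Tpm2 (98.6), Myl9 (79.7), Cnn1 (11.6), Actg2 (5.97), Lmod1 (1.82), Rgs5 (0.359) and Myh11 (0.0198). In the mutant library the order at the top was Tagln (788.5 CPM per kilobase), Acta2 (737) and Tpm1 (632), followed by Tpm2 (160), Myl9 (104), Cnn1 (28.9), Actg2 (11.2) and Lmod1 (4.05). Myh11 and Rgs5 came last with 0.0264 and 0.0140 CPM per kilobase, and their few counts do not order them. By this measure Tagln passed both Acta2 and Tpm1, while the order of the next 5 genes was the same in both libraries. By CPM without the length division, Tpm1, Acta2 and Tagln kept that order, with 1565, 927 and 337 CPM in the control. The mutant values were 1827, 1500 and 1258 CPM. The longest transcript need not be the form expressed, so the change of order depends on the lengths used.

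**Figure D2:**
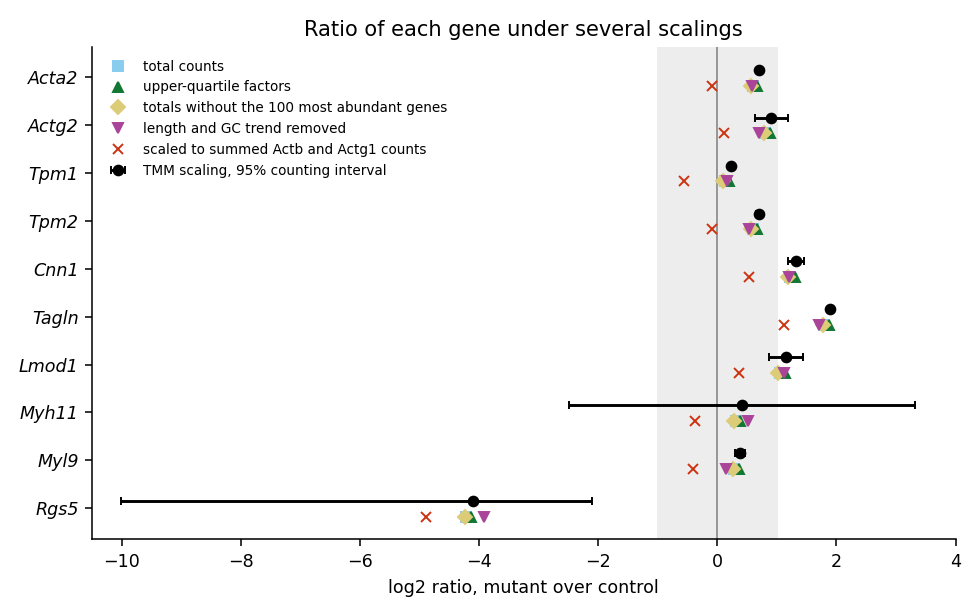
log2 ratio of mutant over control for the 10 genes, with TMM scaling and its 95% counting interval (black) and under 5 other scalings (coloured, drawn below), each with a prior count of 0.5. The grey band marks ratios within 2-fold, and Tagln and Rgs5 lie outside it under every scaling drawn. Myh11 has 3 counts in each library and its interval spans both directions.

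The plot of ratios under several scalings shows that they depend on what the library totals are scaled to. TMM, DESeq2 size factors, upper-quartile factors, raw totals, totals without the 100 most abundant genes and removal of the length and GC trends left Tagln and Cnn1 called higher and Rgs5 called lower. Scaled to the summed counts of the non-muscle actin genes Actb and Actg1, an alternative chosen after the data were seen, the Tagln ratio was 2.16-fold and remained called. Cnn1 was then 1.45-fold higher and not called, and the log2 ratios of Acta2 (-0.09), Tpm1 (-0.56), Tpm2 (-0.09) and Myl9 (-0.40) turned negative. That scaling moved the median of all measured genes by -0.785 on the log2 scale, raw totals moved it by -0.102 and totals without the most abundant genes by -0.128. The actin scaling lowers every other TMM-scaled fold of mutant over control by the same factor, so that increases such as those of Srf and Mrtfa become decreases. Among genes named below as called higher, Mustn1, Fhl1, Pdlim7, Ppp1r14a, Ppp1r14b, Gata6, Nes and Cd14 lose their calls.

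Ratios taken within a library need no scaling between libraries. For every 100 counts of Acta2 there were 36.4 control and 83.8 mutant counts of Tagln, a 2.30-fold change (2.23 to 2.38, counting error only). Cnn1 went from 2.97 to 4.585 counts per 100 of Acta2, a 1.55-fold change (1.40 to 1.71), and Lmod1 from 0.774 to 1.07, a 1.38-fold change (1.14 to 1.67). Tpm2 stayed level with Acta2 at 23.1 and 23.2 counts per 100, with an interval of the change from 0.963 to 1.05. Tpm1 (169 and 122 counts per 100 of Acta2) and Myl9 (9.7 and 7.82) were lower relative to Acta2 in the mutant. The genes thus did not move as a block, with Tagln, Cnn1 and Lmod1 above Acta2 and Tpm1 and Myl9 below it.

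Actins as a family, all 6 genes summed, were 1.71-fold higher in the mutant library (1.70 to 1.72), from 8176 to 13996 CPM. Acta2 took 11.3% of control actin counts (95% Wilson interval 11.2 to 11.5) and 10.7% of mutant ones (10.6 to 10.8). Actb took 52.5% and 54%, and Actg1 36.1% and 35.1%. Actb was 1.76-fold higher (1.75 to 1.78) and Actg1 1.67-fold higher (1.65 to 1.68), so Acta2 differed between the libraries by about as much as the actins of every cell's cytoskeleton. Of 50-base windows, 14.2% of Actb and 56.7% of Actg1 also occur in other genes. Actg2 held 0.0973% and 0.106% of actin counts, the skeletal gene Acta1 had 65 and 76 counts, and the cardiac gene Actc1 had 1 and 0.

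Of the calponins and transgelins, Tagln took 18.6% of the family's counts in the control (18.2 to 19) and 41% in the mutant (40.6 to 41.5). Cnn1 took 1.52% and 2.24%. The genes of the widely expressed calponins Cnn2 (36.7% and 24.1%) and Cnn3 (30.2% and 16.8%) took smaller shares in the mutant, and their own levels were 1.11-fold higher and 1.06-fold lower, in that order. Tagln2, a transgelin gene of many cell types, was 2.05-fold higher (1.98 to 2.12) and just missed the call, and Tagln3 had 21 and 14 counts. Of 50-base windows of Cnn3, 30.3% also occur in other genes. Within this family the smooth muscle genes Tagln and Cnn1 were called higher and none of the other 4 genes was called.

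Tropomyosin shares moved less. Tpm1 took 49.6% of control and 47.4% of mutant tropomyosin counts, and Tpm2 6.79% and 9.04%. Tpm3 took 11% and 15.8%, though 62.4% of its 50-base windows also occur in other genes, and Tpm4, with 16.1% of such windows, took 32.7% and 27.7%. None of the 4 tropomyosin genes was called. Among tropomodulins, which cap filament ends, and leiomodins, Lmod1 took 4.01% of control counts (3.45 to 4.65) and 9.66% of mutant counts (8.63 to 10.8). Tmod2, a tropomodulin gene known from neurons, was 19.8-fold lower in the mutant (12.2 to 34.2) on 447 and 17 counts, the only call in that family. Tmod3, the most abundant, differed little, with 3503 and 2573 counts and a fold of 0.977 (0.928 to 1.03). Tmod1, with 39.8% of its windows in other genes, had 12 and 8 counts, Tmod4 12 and 2, Lmod2 0 and 1 and Lmod3 1 and 0.

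Non-muscle myosin supplied nearly all myosin II heavy chain RNA. Myh9 took 91.8% of control and 93.9% of mutant heavy chain counts, and Myh10 8.14% and 6.07%. Myh11 took 0.00464% (0.00158 to 0.0136) and 0.00513% (0.00174 to 0.0151), with intervals that overlap. Myh14 had 12 and 24 counts. Among light chains Myl9 took 5.04% (4.84 to 5.26) and 4.99% (4.79 to 5.21), again overlapping. Myl12a took 49.8% and 52.6%, Myl6 41.9% and 39.6%, Myl12b 2.72% and 2.41% and Myl6b 0.465% and 0.377%. Of 50-base windows, 29.6% of Myl12a, 18.5% of Myl6 and 11.4% of Myl12b also occur in other genes, so the shares of these 3 are uncertain. None of the 7 measured genes among these heavy and light chains other than Myl9 was called, nor was Myl9.

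**Figure D3:**
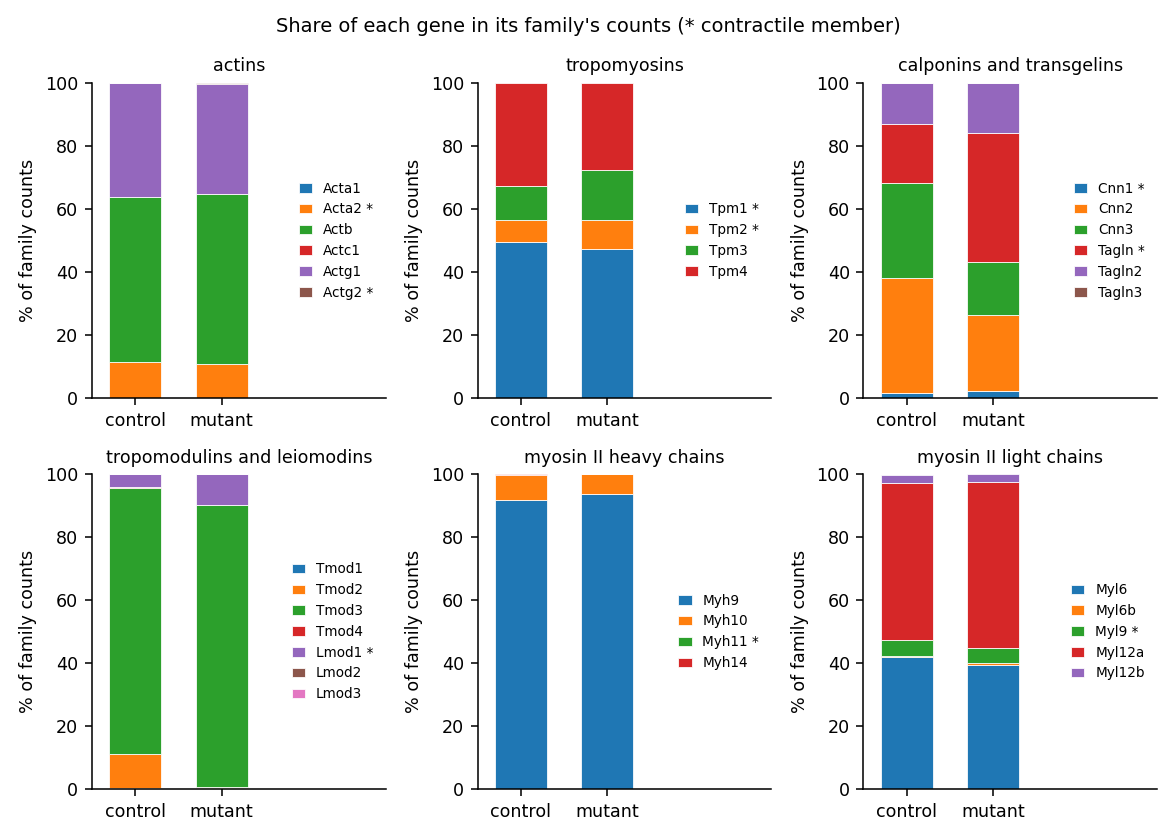
Share of each gene in the summed counts of its family, in percent, for the control and the mutant library, with an asterisk on the contractile genes described here. Tagln grew from 18.6% to 41% of calponin and transgelin counts, whereas Acta2 stayed near 11% of actin counts and Myl9 near 5% of light chain counts.

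Partners of the contractile apparatus, from a list of 29 genes of which 24 were measured, went both ways. Of these, 4 were called higher and 1 lower, beside 6.98% and 8.29% of all measured genes, and the median log2 ratio was 0.14. With the actin scaling 0 were called higher and 9 lower, with Mylk, Cald1, Vcl, Lpp, Fhl2 and Synpo2 among the latter. Mustn1, a small nuclear protein gene of muscle and skeletal tissue, had 353 and 957 counts and was 3.61-fold higher in the mutant (3.19 to 4.09). Ppp1r14a, which encodes the myosin phosphatase inhibitor CPI-17, had 5 and 26 counts, a ratio of 6.92 (2.61 to 23.1). Fhl1, a LIM-domain gene of muscle, was 2.41-fold higher (2.25 to 2.59). Pdlim7, another LIM gene, was 2.13-fold higher (2.03 to 2.23) and was not called with raw totals, upper-quartile factors, totals without the most abundant genes or the length and GC trends removed.

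Palld, which encodes the actin-bundling protein palladin, was the gene called lower among the partners, with a 2.66-fold lower level in the mutant (2.53 to 2.80) from 7330 and 2071 counts. Flna, the gene of the actin cross-linker filamin A, was 1.88-fold lower (1.86 to 1.90) on 136597 and 54605 counts without being called, although it was called with totals that left out the most abundant genes and with the actin scaling. Mylk, the gene of the kinase that activates smooth muscle myosin, was 1.44-fold lower (1.24 to 1.68), and Cald1, the caldesmon gene, 1.23-fold lower (1.20 to 1.25). Smtn, the smoothelin gene, was 1.39-fold higher (1.33 to 1.45), Hspb6 1.51-fold higher (1.38 to 1.65) and Nexn 1.37-fold higher (1.20 to 1.57), all uncalled. Of the 24 measured partners 19 were thus not called, and the genes named lay on both sides.

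Of 16 SRF cofactor and regulator genes, 14 were measured, with 2 called higher, 4 lower and a median log2 ratio of 0.05. Over all measured genes the called shares were 6.98% higher and 8.29% lower. Srf itself had 2000 and 2223 counts and was 1.48-fold higher in the mutant (1.39 to 1.57), without being called. The cofactor genes went both ways, uncalled, with Mrtfa 1.57-fold higher (1.47 to 1.67) and Mrtfb 1.29-fold lower (1.16 to 1.44). Mrtfb was called lower with the actin scaling. Klf5, a zinc finger factor of activated smooth muscle, was 4.37-fold higher (3.70 to 5.19), and Gata6 3.80-fold higher (3.15 to 4.598). Elk1, whose ERK-activated product competes with myocardin for SRF, was 2.94-fold lower (2.57 to 3.38). Its relatives Elk3, 1.54-fold higher (1.46 to 1.635), and Elk4, with a fold of 0.970 (0.880 to 1.07), were not called. Prkg1, the gene of a kinase that relaxes smooth muscle, was 3.69-fold lower (3.06 to 4.47) and the LIM gene Csrp2 2.31-fold lower (2.11 to 2.54). Scai, which encodes a suppressor of MRTF cofactors, was 2.31-fold lower (2.005 to 2.67) but lost its call once the trends over length and GC content were taken out.

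In the RhoA and ROCK pathway, which raises myosin phosphorylation and actin assembly, 1 of 19 measured genes was called higher and 0 lower. The median log2 ratio was 0.17. For this list and the receptors below, the shares over all measured genes were 6.98% called higher and 8.29% lower. The called gene was Ppp1r14b, which encodes another myosin phosphatase inhibitor, with 2214 and 5277 counts and a 3.17-fold higher level (3.02 to 3.33). Rnd3, the gene of a RhoA antagonist, was 1.964-fold lower (1.87 to 2.07) and was called lower with raw totals and with totals that left out the most abundant genes. Other uncalled genes went both ways, with Rhoc 1.74-fold and Cfl1 1.61-fold higher, and Arhgef11 1.75-fold and Arhgef12 1.68-fold lower. With the actin scaling 0 genes of this list were called higher and 4 lower. Of 18 receptor genes for contractile agonists, 8 were measured and Adra1d, an alpha-1 adrenergic receptor gene, was the single call with TMM scaling, with 2228 and 569 counts and a 2.94-fold lower level (2.68 to 3.23). S1pr3, a sphingosine phosphate receptor gene, was 2.13-fold lower (1.88 to 2.42) and was also called with raw totals and with totals that left out the most abundant genes. With the actin scaling 3 were called lower, Adra1b included.

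Pericyte markers other than Rgs5 included calls in both directions. Of 18 genes, 12 were measured, 2 were called higher and 4 lower, beside 6.98% and 8.29% of all measured genes. The median log2 ratio was -0.67. The count called lower was 2 with a 99% interval and 5, Foxc1 included, with totals that left out the most abundant genes. With the actin scaling 1 was called higher and 8 lower. Abcc9 had 1 and 0 counts, Kcnj8 6 and 1, and Higd1b, Vtn and Heyl had 0 in both libraries, so several defining pericyte genes were at or near 0 in the control too. Other genes of the list were well above 0, with 6075 and 3721 counts for Pdgfrb and 5691 and 2212 for Foxc1. Cd248 had 930 and 392 counts and Tbx18 555 and 351, and none of them was called with TMM scaling. Notch3, a receptor gene of mural cells, was 3.70-fold lower (2.02 to 7.33) on 64 and 13 counts, and lost its call with those trends taken out. Anpep was 3.02-fold lower (2.56 to 3.58) and Ndufa4l2 2.49-fold lower (2.08 to 3.003). Cspg4, the NG2 proteoglycan gene, was 1.43-fold lower (1.36 to 1.501) and uncalled. Mcam, by contrast, had 48 and 197 counts and was 5.46-fold higher (3.97 to 7.65), and Nes, the nestin gene, was 2.76-fold higher (2.67 to 2.86).

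Rgs5 belongs to the R4 group of RGS genes, of which 5 of 10 were measured. With Rgs5 included, 1 was called higher and 3 lower, beside 6.98% and 8.29% of all measured genes. Rgs4, which is also a mural cell marker, was 4.84-fold lower in the mutant (3.36 to 7.17) on 219 and 34 counts. Rgs2, which encodes a regulator of vascular tone, was 2.95-fold lower (2.32 to 3.80) on 330 and 84 counts. Rgs16 went the other way, with 32 and 950 counts and a 39.5-fold higher level (27.8 to 58.1), and Rgs3 was 2.08-fold higher (1.84 to 2.36) without being called. Rgs16 was thus the most abundant R4 gene by CPM in the mutant library (54.6 CPM) and Rgs3 in the control (18.6 CPM), with no correction for length. These R4 calls held under all 6 other scalings tried.

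**Figure D4:**
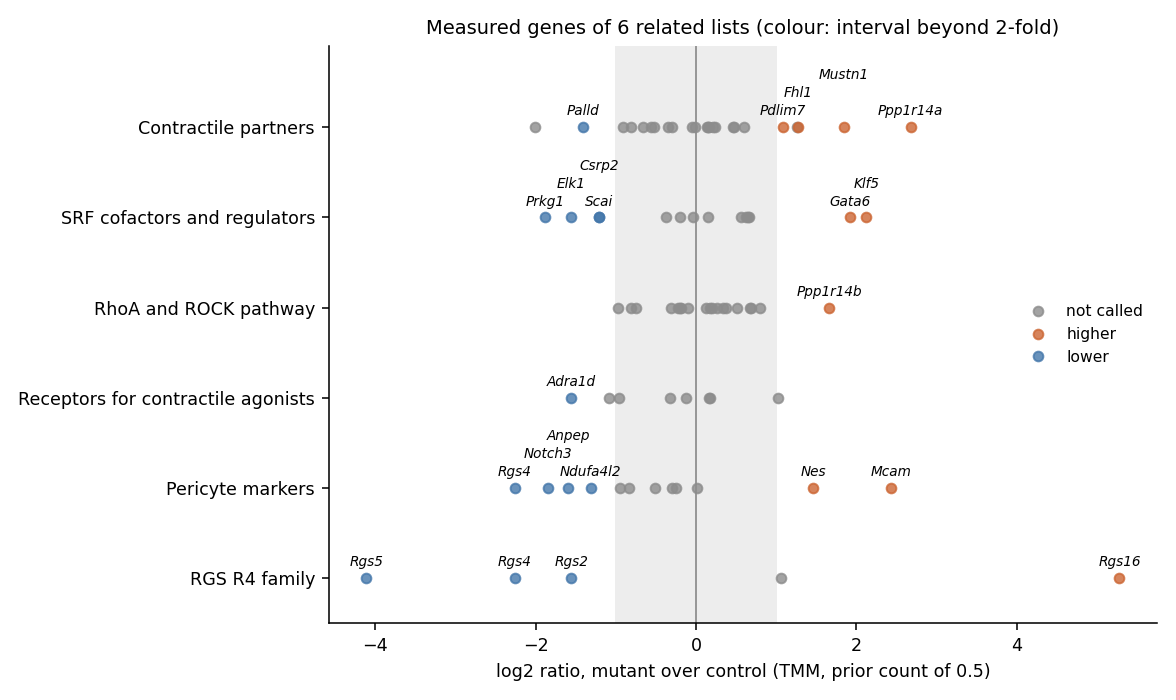
log2 ratio of mutant over control for the measured genes of 6 related lists, 1 point per gene, with the grey band marking ratios within 2-fold and names on genes whose whole counting interval lies beyond it. Rgs16 stands at the far right and Rgs5 at the far left, and the contractile partners and SRF regulators lie on both sides.

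Markers of some other cell types also differed between the libraries. Of 12 pan-haematopoietic markers 6 were measured, 4 were called higher in the mutant and 0 lower, beside 6.98% and 8.29% of all measured genes. The summed level of the list went from 0.951 to 14.8 CPM. The called genes were Lcp1 with 2 and 76 counts, Itgb2 with 0 and 49, Laptm5 with 0 and 31, and Tyrobp with 0 and 20. Macrophage markers went from 14.35 to 57.5 CPM in sum, with 6 of 8 measured genes called higher, led by Lyz2 with 11 and 276 counts, Mpeg1 with 5 and 62, Ctss with 0 and 34, and C1qa with 0 and 24. Csf1r (149 and 229 counts) and Cd14 (121 and 237) had the most counts in that list. Cd14 lost its call with raw totals, with totals that left out the most abundant genes and with the length and GC trends removed. The called genes of both lists, except Cd14, reached the minimum of 20 counts through the mutant library alone. A gene at 0 control counts that reaches this minimum is bound to be called higher, so these counts of calls were largely set by the filter. Marker levels do not give the amount of Tagln or other contractile RNA in such cells. The part of these cells in the results was not tested.

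Platelet and megakaryocyte markers, from cells that are rich in Myl9 and Tpm1, had 5 of 13 genes measured and a summed level of 30.6 and 70 CPM. Of these, Ppbp was called higher (168 and 802 counts) and Gp1ba lower (57 and 5), beside 6.98% and 8.29% of all measured genes. Itgb3 had 147 and 182 counts, Itga2b 150 and 122 and Gp1bb 185 and 104, while Gp6, Gp9 and Treml1 had 0 in both libraries and Pf4 had 0 and 2. Of 12 endothelial markers, 2 were measured and 0 called, with a summed level of 1.69 and 2.99 CPM, led by Erg (10 and 15 counts) and Vwf (14 and 8). Kdr had 0 and 14 counts, and Tie1, Cldn5 and Robo4 were at 0 in both. Of 8 erythroid genes none was measured, and Epor and Alas2 had 6 and 2 counts each. Of 25 striated muscle genes 5 were measured, and Ckm, Pax7, Myh2 and Myh4 had 0 counts in both libraries. Of the sort genes, Pdgfra had a fold of 1.15 (1.08 to 1.23). Pdgfrb was 1.23-fold lower (1.18 to 1.28), Ly6a, the Sca-1 gene, was 2.67-fold lower (2.44 to 2.93), and Ptprc (1 and 12 counts) and Pecam1 (5 and 2) were near 0. Ptpn11 had 5958 and 5039 counts, which does not separate the alleles.

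Genes with short transcripts tended to be higher in the mutant library and those with long transcripts lower. The median log2 ratio was 0.22 for the 2903 measured genes with a longest transcript of up to 2000 bases and -0.28 for the 1865 with over 6000 bases. Tagln (1595 bases), Actg2 (1333) and Myl9 (1128) are in the short class and Acta2 (2035) lies just above it, while Lmod1 (3948) and Rgs5 (4096) are longer. With the trends over length and GC content removed, Tagln was 3.27-fold higher (3.19 to 3.36), Cnn1 2.31-fold (2.09 to 2.54), Acta2 1.499-fold (1.47 to 1.53) and Myl9 1.10-fold (1.04 to 1.17). Rgs5 was 22.2-fold lower (3.73 to 904).

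**Figure D5:**
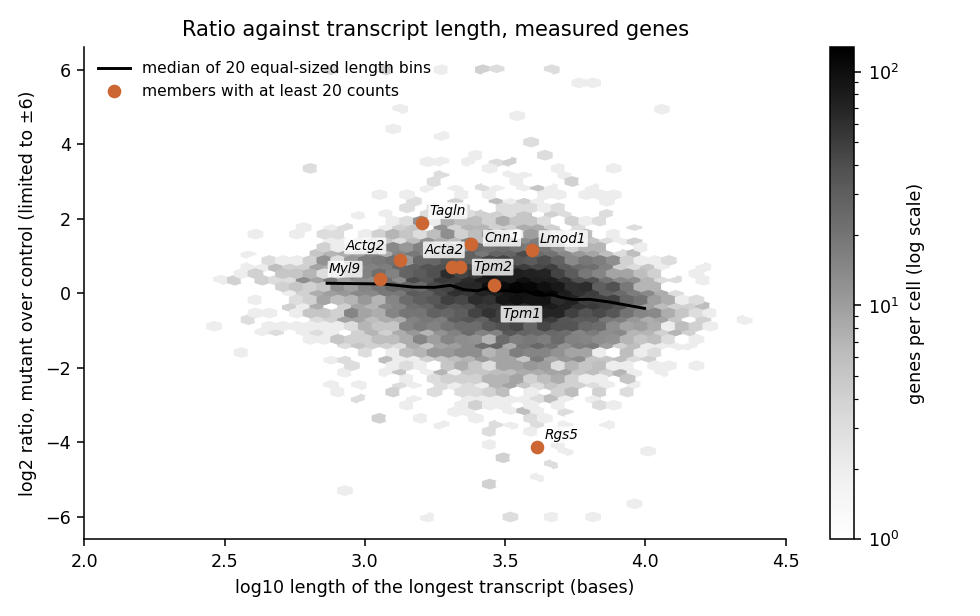
log2 ratio of mutant over control against the log10 length of the longest transcript for measured genes, as a density in grey, with the running median in black and the 9 measured contractile and pericyte genes in orange. Tagln, Cnn1 and Lmod1 lie above the median line, Tpm1 and Myl9 lie close to it and Rgs5 far below it.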

How the data were processed

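Polyadenylated RNA from sorted MSPC was sequenced, 1 library per genotype. The authors deposited raw read counts per Ensembl gene, which are whole numbers and not normalized. The submitters' processing notes list CASAVA, TopHat, edgeR and the build mm9, without versions or roles. No source used here gives the read counter, annotation release or strand setting. Every row is an Ensembl identifier, no sample column was left unused, and 34490 of 35275 identifiers matched a symbol in the supplied table.

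TMM factors (1.036 for the control and 0.965 for the mutant) came from edgeR 4.0.16 in R 4.3.3, without a test. Intervals are 95% exact Clopper-Pearson for folds and Wilson for shares (SciPy 1.17.1), and cover counting error only. Calls need at least 20 counts over both libraries and an interval beyond 2-fold. Medians use a prior count of 0.5 per library. A fold against 0 counts is given only as a bound, at a floor of 3 counts per library. The calling procedure was tested on simulated libraries with counting noise only. That test does not cover differences between animals or the trend over transcript length. Transcript lengths and GC content are of the longest GENCODE M21 transcript, on another build than mm9, and were found for 99.5% of measured genes. The promoter windows are from RefSeq GRCm38.p6, and no coordinates of the count table are given.

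The genes followed and the 23 lists were chosen with earlier results of these data known. Text names all 10 genes, every gene of the 6 families, up to 4 called genes per direction and list, and the most abundant markers of other cells. Flna, Mylk, Cald1, Smtn, Srf, Mrtfa, Myocd, Des, Cspg4, Rgs3, Pcsk7, Abcc9, Kcnj8, Kdr, Vcl, Lpp, Fhl2, Synpo2, Rnd3, S1pr3, Adra1b, Itga2b, Gp1bb and the markers named at 0 counts were chosen after their values were seen. So were Mrtfb, Elk3, Elk4, Hspb6, Nexn, Foxc1, Cd248, Tbx18, Rhoc, Cfl1, Arhgef11 and Arhgef12. Alternatives were other scalings (DESeq2 1.42.0 size factors among them), count minimums, thresholds, interval levels and priors.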

Additional observations from a re-analysis of the deposited data

How the results depend on the processing

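No paired analysis was possible because each genotype has 1 library, and no replicate could be left out. Each ratio rests on 1 library per genotype, and below about 100 counts the counting interval alone is wide, as for Rgs5. Tagln and Cnn1 were the 2 genes called higher and Rgs5 the 1 called lower under 4 other scalings, without the length and GC trends, with no minimum count and with a 99% interval. Scaled to Actb and Actg1, chosen after seeing the data, 1 was called higher, the median log2 ratio of the 10 genes was -0.089, and 288 genes of the whole table were called higher and 3611 lower, against 917 and 1090. With a minimum of 100 counts, 0 were called lower, since Rgs5 has fewer counts. With the interval beyond 1.5-fold, 6 were called higher, 2063 genes of the table higher and 2046 lower, and 66 genes of the lists called in place of 40. Beyond 4-fold, 0 were called higher, 223 of the table higher and 265 lower, and 15 list genes. Over 7 alternatives the log2 ratio of Tagln ranged from 1.11 to 1.90 and that of Cnn1 from 0.54 to 1.32, and Rgs5 was 9.02-fold to 29.8-fold lower. Per kilobase of transcript, Tagln took 23.8% of calponin and transgelin signal in the control and 47.6% in the mutant. Without Tmod3, Lmod1 took 26% and 90.8% of its family's counts. Most of the rest was Tmod2, which had 447 control and 17 mutant counts, while Lmod1 had 166 and 278.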

Other observations

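Troponin genes, which encode the calcium switch of striated muscle and are not part of the smooth muscle apparatus, differed between the libraries in opposite directions. Tnnt2, the cardiac troponin T gene, had 24 control and 482 mutant counts and was 26.7-fold higher (17.7 to 42.1). Tnnt3, the fast skeletal troponin T gene, was 11.1-fold lower (4.56 to 35.3) on 74 and 5 counts. Tnnc1 had 52 and 51 counts and was not called, and Tnni3 had 13 and 6 and was not measured. The myogenic factor genes Myod1 and Myog had 0 and 3 counts and 0 and 1. The vasopressin receptor gene Avpr1a had 0 and 18 counts, at least 7.98-fold higher at a floor of 3 counts per library, and missed the minimum of 20 counts. These genes come from the lists above, and those that were not called were chosen after their values were seen.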
